A study of Rattus norvegicus with 12 samples.

Results

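ATF4 and the genes of the amino acid stress response were examined in primary rat oligodendrocyte precursor cells (OPCs) by bulk RNA-seq. The 10 genes, Atf4, Ddit3, Atf3, Trib3, Asns, Chac1, Sesn2, Psat1, Phgdh and Shmt2, were chosen by symbol from the 30562 Ensembl genes of the count table, and each symbol had a single row. Cortical OPCs of wild-type Sprague-Dawley rats at postnatal day 1 or 2, purified by shaking mixed glial flasks, were kept either at an FiO2 (fraction of inspired oxygen) of 5% (mild-hypo-OPCs, 6 libraries) or in room air (standard OPCs, 6 libraries), both in a medium with glutamine, FGF-2 and PDGF-AA. The labels give an exposure of 6 hours, and the study's methods give the same number in days. The legend for this comparison speaks of biological replicates and numbers them at 3 per group, against 6 labelled libraries, and does not say which libraries share a culture. The n of 6 below therefore counts libraries. If some came from the same culture, the SDs and p-values are too small, and they measure only the spread between these libraries, which may in part be technical.

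ATF4 is the transcription factor through which cells answer a shortage of amino acids, unfolded protein in the endoplasmic reticulum (ER), heme deficiency and viral RNA. Each of these inputs activates a kinase that phosphorylates the initiation factor eIF2α, which lowers general translation while the ATF4 message, through its upstream open reading frames, is translated more. ATF4 protein then induces genes for amino acid synthesis and uptake and, under lasting stress, Ddit3 (CHOP), Trib3 and Chac1. RNA-seq therefore measures the ATF4 message and the products downstream of the protein, not the amount of ATF4 protein itself. Severe oxygen shortage is a known activator of the pathway in other cells.

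Total counts ranged from 4111669 to 9022324 in mild-hypo-OPC libraries and from 1356079 to 2797513 in standard OPC libraries, so depth and condition moved together. Levels are given as CPM, that is counts per 1000000 counts of the genes kept, scaled with edgeR's TMM factors, and differences as log2 fold changes of mild-hypo-OPCs relative to standard OPCs. Over the 8938 genes with more than 10 CPM in at least 1 library, edgeR's quasi-likelihood test called 626 genes higher and 1520 lower at an adjusted p under 0.05. Upper-quartile factors gave a split of 1136 higher against 1255 lower. Library size alone gave 5515 against 405 and moved the median over all genes from -0.00 to 0.43 (log2). Each direction below is relative to the TMM scale unless another is named. Of the OPC markers 9 were tested, 3 called higher (Gpr17 with 0.45, Neu4 with 0.38 and Nkx2-2 with 0.20) and 0 lower by edgeR, whereas Pdgfra, Olig2 and Sox10 were not called. Their summed level was 3938 to 4516 CPM in mild-hypo-OPCs and 3255 to 4001 CPM in standard OPCs.

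Of the 10 genes, 6 passed the expression filter (Atf4, Asns, Sesn2, Psat1, Phgdh and Shmt2), and 4 did not (Ddit3, Atf3, Trib3 and Chac1). Atf4 was the single gene called among the 6, and it was lower in mild-hypo-OPCs. Called genes made up 24.0% of all genes tested, 17.0% lower and 7.00% higher, so 1 of 6 was no more than the share in the whole table. None of the 6 was called higher by edgeR or limma-voom, and DESeq2 called 1 higher (Psat1). In edgeR 2 of the 6 had an unadjusted p under 0.05 (Atf4 and Psat1), beside 3243 of all 8938 genes tested. Their median log2 fold change was 0.07, beside -0.00 over all genes tested. Among the genes below the filter, which were compared in a fit without a filter, Atf3 was called lower, and Ddit3 and Chac1 were not called.

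**Figure D1:**
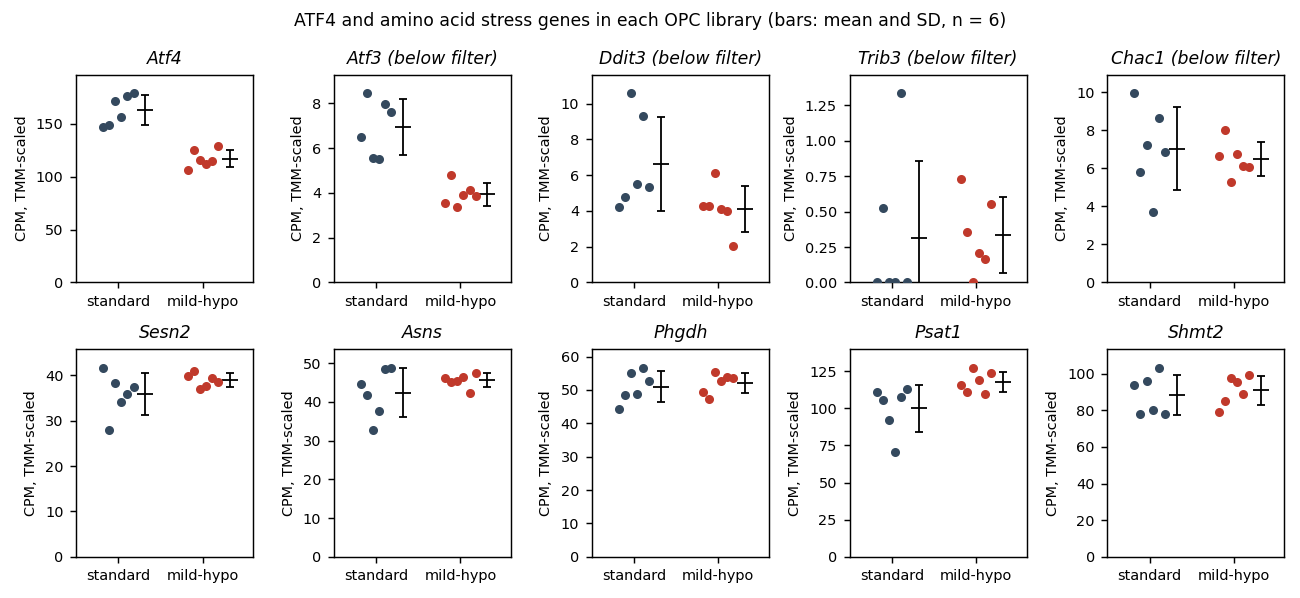
Level of each gene in CPM (vertical axis, starting at 0) in the 6 standard OPC and the 6 mild-hypo-OPC libraries, with the mean and SD of each group beside the points. The groups separate for Atf4 (106 to 129 against 147 to 179 CPM) and for Atf3, and overlap for the other 8 genes.

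The promoters of these genes are shown for 3 members, since ATF4 acts through a short DNA element and the called gene is Atf4 itself. RefSeq promoters (GRCr8) were found for 9 of the 10 genes, all but Atf3, and the 250 bases before each annotated start were searched on both strands for the core of the C/EBP-ATF response element (TGATGNAA), for the cAMP response element (TGACGTCA) and for the ER stress response element (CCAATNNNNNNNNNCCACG). The first pair of motifs cannot match the same position on either strand, since they differ in fixed letters. The C/EBP-ATF core was found in Chac1 and Trib3, 2 of the 9, and in 3.4% of all 33469 promoters of the same length. The other motifs were found in 0 of the 9, beside 1.59% and 0.0657% of all promoters. The 250 bases before the start are given 5′ to 3′ on the strand of the gene, with the matched letters in capitals. They are chr7:113684431-113684680 (plus strand) for Atf4, chr3:126795881-126796130 (plus strand) for Chac1 and chr3:161275534-161275783 (minus strand) for Trib3.
Atf4: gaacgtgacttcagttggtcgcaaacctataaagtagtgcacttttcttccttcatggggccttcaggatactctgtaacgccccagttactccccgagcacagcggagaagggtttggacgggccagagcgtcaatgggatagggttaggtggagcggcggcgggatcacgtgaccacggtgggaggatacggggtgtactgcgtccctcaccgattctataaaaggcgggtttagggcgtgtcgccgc
Chac1: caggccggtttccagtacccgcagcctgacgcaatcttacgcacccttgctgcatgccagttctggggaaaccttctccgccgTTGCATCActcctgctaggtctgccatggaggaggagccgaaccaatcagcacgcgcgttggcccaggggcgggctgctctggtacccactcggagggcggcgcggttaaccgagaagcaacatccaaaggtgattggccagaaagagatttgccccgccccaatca
Trib3: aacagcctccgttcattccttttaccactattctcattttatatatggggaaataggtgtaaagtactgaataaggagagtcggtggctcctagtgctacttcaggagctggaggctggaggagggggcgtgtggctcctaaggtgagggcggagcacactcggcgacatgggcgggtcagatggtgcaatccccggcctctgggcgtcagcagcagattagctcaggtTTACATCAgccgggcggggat
In Chac1 the match begins 167 bases before the start and in Trib3 21 bases before it, in both on the opposite strand. The window of Atf4 has no capitals because none of the searched letters was in it. A match is a description of the letters and was not set against any binding data.

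Atf4 (ENSRNOG00000017801), the factor at the centre of the pathway, was counted 547 to 1019 times in the mild-hypo-OPC libraries and 170 to 384 times in the others. Scaled, its level was 106 CPM at the lowest, 115 at the median and 129 at the highest in mild-hypo-OPCs. In standard OPCs the lowest, median and highest levels were 147, 164 and 179 CPM. Every standard OPC library was above every mild-hypo-OPC library, a separation found in that direction in 5.40% of all genes tested. The means were 117 ± 8.41 CPM (SD, n = 6) and 163 ± 14.3 CPM (SD, n = 6). The log2 fold change was -0.48 (standard error 0.08, 95% interval -0.64 to -0.31, adjusted p = 0.000333 from edgeR). By p-value Atf4 stood at place 216 of the 8938 genes tested, and 13.2% of them had a log2 fold change as low or lower. With any 1 library left out the change lay between -0.51 and -0.42 and was called in 12 of 12 fits. Replicates 1 to 3 alone gave -0.41 (edgeR, adjusted p = 0.0464), and replicates 4 to 6 alone gave -0.52 (edgeR, adjusted p = 0.0019).

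The call of Atf4 was lost in 3 other settings. With library size alone, its log2 fold change was -0.04 (adjusted p = 0.762 from edgeR), on a scale where the median of all genes was 0.43. With the depth of each library (log2 total) as a second term it was -0.23 (adjusted p = 0.808 from edgeR). The remaining setting concerns gene span, the distance from the first to the last base of a gene, introns included, which for Atf4 is 2059 bases against a median of 25568.5 bases over the tested genes with a span. Short genes were lower in mild-hypo-OPCs as a group. Of the 260 tested genes with a span no longer than that of Atf4, 139 (53.5%) were called lower and 5 higher, and their median log2 fold change was -0.49, close to the -0.48 of Atf4. The lowess trend of the log2 fold change on span was -0.37 at the span of Atf4. This setting was added after the data were seen. Once the trend was taken out, Atf4 had -0.11 (adjusted p = 0.370 from edgeR).

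**Figure D2:**
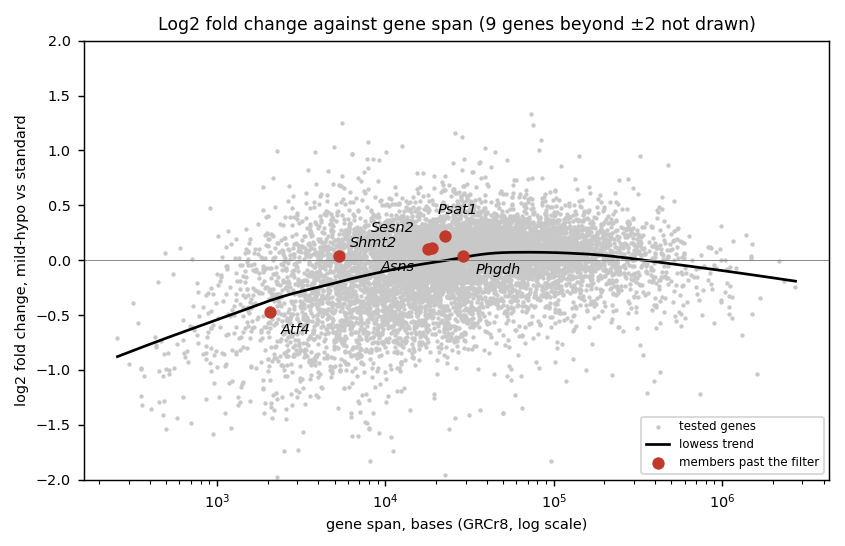
Log2 fold change (vertical axis) against gene span in bases (horizontal axis, log scale) for the 8544 tested genes with a span, 9 of which lie beyond ±2 and are not drawn. Grey points are genes, the black line is the lowess trend and red points are the 6 members past the filter. Atf4 lies a little below a trend that is itself at -0.37 there, and Shmt2 lies above it.

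A ratio of counts within a library does not depend on the scaling factors, and the ratio of Atf4 to each other tested member was therefore taken, a measure chosen after the values were seen. The log2 ratio of Atf4 to Psat1 lay at -0.14 to 0.17 for the mild-hypo-OPC libraries against 0.41 to 1.14 for the standard ones, a difference of -0.73 between the means. For Sesn2 and Asns the differences were -0.60 and -0.59. For Phgdh and Shmt2 they were -0.51 and -0.53. The groups did not overlap in any of these 5 ratios, as in 29.5% of the ratios of Atf4 to every other tested gene. Atf4 was thus lower relative to each of these members, which largely restates that it alone was called lower among the tested members. The ratios do not show which of the 2 genes in a ratio moved. The 5 ratios share the counts of Atf4 and are not separate results. The groups still differ in depth, and the paired genes in span, within each ratio. The span trend was -0.37 for Atf4, -0.20 for Shmt2 and between -0.03 and 0.03 for the other members in the ratios.

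**Figure D3:**
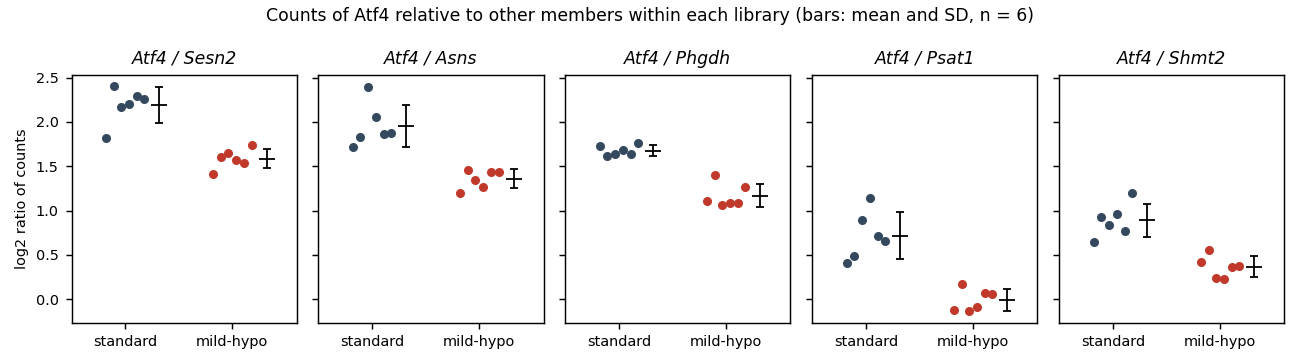
Log2 ratio of the counts of Atf4 to those of 5 other members (vertical axis, shared) in each library, with the mean and SD of each group. In every panel all 6 mild-hypo-OPC libraries lie below all 6 standard OPC libraries.

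Atf3 and Ddit3 encode the stress-induced partners of ATF4. Atf3 (ENSRNOG00000003745), an early factor of the same bZIP family, was read few times, with 19 to 34 counts in each mild-hypo-OPC library and 6 to 17 in each standard one. Its level was 3.37 CPM at the lowest, 3.88 at the median and 4.80 at the highest in mild-hypo-OPCs, and 5.52, 7.07 and 8.45 CPM in standard OPCs. The groups did not overlap, as in 5.40% of the 8938 genes past the filter. The share was 2.96% of the 17391 genes of the fit without a filter, which include genes of very few counts. In that fit, in which 12.9% of genes were called, 8.72% lower and 4.22% higher, the log2 fold change of Atf3 was -0.79 (standard error 0.24, 95% interval -1.27 to -0.32, adjusted p = 0.0189 from edgeR). limma-voom called it too (adjusted p = 0.00445), and so did DESeq2 (adjusted p = 0.00883). The call was lost without mild-hypo-OPC replicate 1 (-0.73, edgeR, adjusted p = 0.0534), without standard OPC replicate 2 (-0.72, edgeR, adjusted p = 0.0579), and with library size alone (-0.41, adjusted p = 0.211 from edgeR). It was also lost in replicates 1 to 3 or 4 to 6 (-0.78 and -0.80) and with the depth term (-0.60, adjusted p = 0.884 from edgeR). The span of Atf3, 57551 bases, is not short, but it overlaps that of Garin4.

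Ddit3 (ENSRNOG00000006789), which encodes the proapoptotic factor CHOP, was read 11 to 41 times in the mild-hypo-OPC libraries and 6 to 19 times in the standard ones. Its level was 2.03 CPM at the lowest, 4.18 at the median and 6.10 at the highest in mild-hypo-OPCs, and 4.21, 5.43 and 10.6 CPM in standard OPCs. The groups overlapped, and standard OPC replicates 3 and 5 were the highest. The log2 fold change was -0.61 (standard error 0.28, 95% interval -1.17 to -0.05), which did not pass the threshold (adjusted p = 0.154 from edgeR without a filter). It was -0.40 when standard OPC replicate 3 was left out, -0.32 in replicates 1 to 3 and -0.98 in replicates 4 to 6, none of them called. Thinned libraries gave -0.93 and library size alone -0.22, also without a call. The span of Ddit3 overlaps that of Mars1, and the strand setting of the counting is not given in the sources used here.

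Trib3 and Chac1 are late targets, a pseudokinase that feeds back on ATF4 and CHOP and an enzyme that degrades glutathione. Trib3 (ENSRNOG00000007319) was close to undetected, with 7, 2, 0, 1, 1 and 3 counts in mild-hypo-OPC replicates 1 to 6 and 0, 1, 0, 0, 2 and 0 counts in those of standard OPCs. All standard OPC libraries were under a floor of 3 counts, so no fold change is given, and a difference was not detectable at this depth. Chac1 (ENSRNOG00000014387) was read 33 to 64 times in the mild-hypo-OPC libraries and 4 to 26 times in the standard ones. Its level was 5.30 to 7.99 CPM (median 6.41) in mild-hypo-OPCs and 3.68 to 9.94 CPM (median 7.05) in standard OPCs, whose range enclosed the former. The log2 fold change of -0.15 (95% interval -0.59 to 0.29, adjusted p = 0.683 from edgeR without a filter) did not pass the threshold, and with library size alone it was 0.23 (adjusted p = 0.449 from edgeR).

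Asns and Sesn2 are targets induced when amino acids run short. Asns (ENSRNOG00000007546), asparagine synthetase, had 42.3 CPM at the lowest, 45.9 at the median and 47.6 at the highest in mild-hypo-OPCs, and 32.8, 43.2 and 48.9 CPM in standard OPCs. The mild-hypo-OPC libraries all lay inside the range of the standard OPC libraries. Its log2 fold change was 0.10 (95% interval -0.10 to 0.30, adjusted p = 0.466 from edgeR). Sesn2 (ENSRNOG00000042785), sestrin 2, which senses leucine and restrains mTORC1, had 36.9 to 41.0 CPM (median 39.0) in mild-hypo-OPCs and 28.0 to 41.7 CPM (median 36.7) in standard OPCs. Its groups overlapped in the same way, and its log2 fold change was 0.11 (95% interval -0.09 to 0.31, adjusted p = 0.441 from edgeR). For both genes the upper end of the interval was near 0.3, so larger rises lay outside the 95% interval on the TMM scale.

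Phgdh, Psat1 and Shmt2 make serine and glycine. Phgdh (ENSRNOG00000019328) catalyses the first step from the glycolytic intermediate 3-phosphoglycerate, Psat1 the following transamination, and Shmt2 the mitochondrial conversion of serine to glycine. Psat1 (ENSRNOG00000013971) had 109 CPM at the lowest, 118 at the median and 127 at the highest in mild-hypo-OPCs, and 70.9, 106 and 113 CPM in standard OPCs. The groups overlapped narrowly, with standard OPC replicate 4 the lowest library of all. The log2 fold change of 0.22 (standard error 0.09, 95% interval 0.03 to 0.42) did not pass the threshold over all genes (adjusted p = 0.0912 from edgeR). It passed with DESeq2 (0.24, adjusted p = 0.0488) and with upper-quartile factors in edgeR (0.29, adjusted p = 0.0282), and it was called with no library left out in turn (0 of 12 fits).

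Phgdh had 47.4 to 55.2 CPM (median 53.1) in mild-hypo-OPCs and 44.4 to 56.6 CPM (median 50.7) in standard OPCs, and a log2 fold change of 0.03 (95% interval -0.14 to 0.21, adjusted p = 0.809 from edgeR). Shmt2 (ENSRNOG00000008106) had 79.4 to 99.6 CPM (median 92.2) in mild-hypo-OPCs and 77.9 to 103 CPM (median 86.9) in standard OPCs, and a log2 fold change of 0.04 (95% interval -0.15 to 0.23, adjusted p = 0.801 from edgeR). In both genes the groups covered nearly the same range. Shmt2, with a span of 5334 bases, lay 0.23 above the span trend (adjusted p = 0.0705 from edgeR with the trend removed). Its span overlaps that of Ndufa4l2, and that of Sesn2 overlaps LOC134487007. RefSeq lists 6 pseudogenes named after Phgdh and 1 each after Psat1 and Shmt2. No row of the count table carries those names, so reads shared with such pseudogenes could not be followed. With library size alone, all of Asns, Sesn2, Psat1, Phgdh and Shmt2 were called higher, by 0.47 to 0.66, against the shift of 0.43 in the median of all genes.

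**Figure D4:**
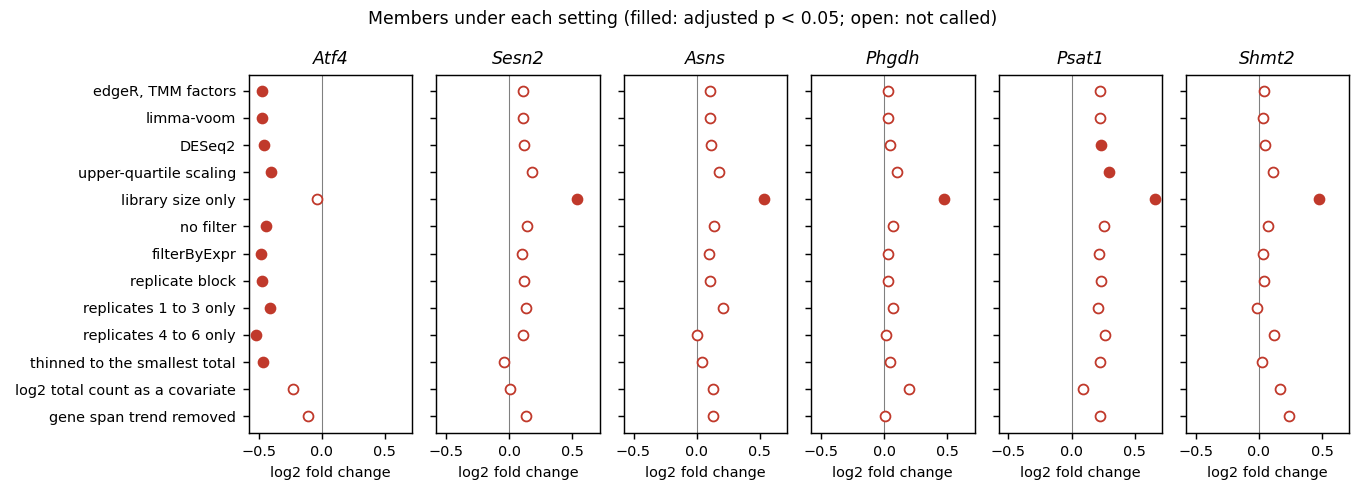
Log2 fold change (horizontal axis, shared) of the 6 members past the filter under edgeR with TMM factors and 12 alternatives (rows). Filled points passed an adjusted p of 0.05 and open points did not. Atf4 is open with library size alone, the depth covariate and the span trend removed, and Psat1 is filled with DESeq2, upper-quartile factors and library size alone.

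The genes around ATF4 were described from 7 lists of 129 genes in all, 99 of them tested. In these lists 15 genes were called higher and 6 lower, which is 21.2% of those tested beside 24.0% of all genes, and their median log2 fold change was 0.08. Among the genes that set ATF4 translation, Eif2ak2, the kinase PKR that senses double-stranded RNA, was higher, with 12.8 to 15.6 CPM in mild-hypo-OPCs and 6.66 to 13.2 CPM in standard OPCs (log2 fold change 0.55, adjusted p = 0.0176 from edgeR). It rested on 10 to 25 counts per standard OPC library, and it had 0.44 when standard OPC replicate 1 was left out (edgeR, adjusted p = 0.0575). The other kinases were not called. Eif2ak1 (HRI) had 0.20, Eif2ak3 (PERK) 0.22 and Eif2ak4 (GCN2, the sensor of uncharged tRNA) 0.04, with adjusted p-values from edgeR between 0.172 and 0.922. Eif2s1, which encodes eIF2α itself, was lower (-0.39, adjusted p = 0.00929 from edgeR), with 56.1 to 75.8 CPM against 74.2 to 112 CPM.

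The phosphatase subunits that reverse the signal are Ppp1r15a (GADD34), an ATF4-induced gene, and the constitutive Ppp1r15b. Ppp1r15a was below the filter, at 4 to 36 reads in the mild-hypo-OPC libraries and 0 to 10 in the standard ones. Ppp1r15b was just past the threshold (0.22, adjusted p = 0.0498 from edgeR), with 65.3 to 74.1 CPM in mild-hypo-OPCs above 50.6 to 64.6 CPM in standard OPCs. Its call held in 5 of 12 fits with a library left out. It was lost in 8 of the 12 alternative settings, limma-voom among them (adjusted p = 0.0557). In this list of 16 genes 14 were tested, and 2 were called higher and 1 lower, beside 7.00% and 17.0% of all genes tested. The subunits of eIF2B, the exchange factor that phosphorylated eIF2α inhibits, had log2 fold changes from -0.29 for Eif2b4 to -0.08 for Eif2b2, none of them called.

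Of the partners and feedback genes of ATF4, such as Cebpg, Atf5, Ddit4, Vldlr, Herpud1 and Bbc3, 11 of 20 were tested and 0 were called by edgeR, limma-voom or DESeq2, with 0 at an unadjusted p under 0.05 in edgeR. Their log2 fold changes ran from -0.18 for Bbc3 to 0.19 for Atf5. Over all 8938 genes tested, edgeR called 24.0%, and 3243 had an unadjusted p under 0.05. Nupr1 and Fgf21, stress-induced targets, had no count in any library. Among the serine, glycine and folate enzymes, 11 of 14 were tested. Beside 7.00% higher and 17.0% lower over all genes, 0 of them were called higher by edgeR and 2 were called lower. These were Psph (-0.42, adjusted p = 0.0114 from edgeR), the last enzyme of serine synthesis after Phgdh and Psat1, and Gcsh (-0.45, adjusted p = 0.00435 from edgeR), a protein of the glycine cleavage system. Psph had 33.9 to 49.8 CPM in mild-hypo-OPCs and 40.7 to 61.8 CPM in standard OPCs. The 3 enzymes of the serine route thus had log2 fold changes of 0.03, 0.22 and -0.42 in the order of their reactions.

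The amino acid transporters had the highest median of the lists (0.23), with 4 of 11 tested genes called higher and 0 lower, beside 7.00% called higher over all genes. Slc7a1, which carries arginine and lysine, had 57.8 to 77.8 CPM in mild-hypo-OPCs and 45.8 to 56.5 CPM in standard OPCs, with no overlap, a separation found in that direction in 2.94% of all genes tested (log2 fold change 0.48, adjusted p = 0.000997 from edgeR). Slc6a9, the glycine transporter GlyT1, had 0.41 (adjusted p = 0.0194 from edgeR), and Slc43a2, a carrier of large neutral amino acids, had 0.50 (adjusted p = 0.0400 from edgeR). Slc7a5, the leucine carrier LAT1, had 0.27 (adjusted p = 0.0184 from edgeR). Its groups overlapped, with 157 to 170 CPM in mild-hypo-OPCs and 115 to 159 CPM in standard OPCs. The call of Slc7a5 was not followed in the fits with a library left out. With each library left out in turn, the call held in 12 of 12 fits for Slc7a1, in 11 for Slc6a9 and in 6 for Slc43a2. Leaving out standard OPC replicate 3 took Slc6a9 to 0.33 (edgeR, adjusted p = 0.0549), and for Slc43a2 the lowest value was 0.35, without standard OPC replicate 5, with calls also lost without replicates 4 and 6 of that group and 1, 2 and 5 of the other. Slc38a2, the glutamine and alanine carrier that ATF4 induces, had -0.15 and was not called (adjusted p = 0.276 from edgeR). Slc38a2 was singled out after its value was seen.

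Other amino acid enzymes were called in both directions, 2 higher and 1 lower of 14 tested, beside 7.00% and 17.0% of all genes tested. Glul, glutamine synthetase, had 729 to 989 CPM in mild-hypo-OPCs above 519 to 679 CPM in standard OPCs (log2 fold change 0.38, adjusted p = 0.00653 from edgeR). Bcat1, which transaminates branched-chain amino acids, had 146 to 165 CPM above 108 to 136 CPM (0.35, adjusted p = 0.00262 from edgeR). Pycr3, of proline synthesis, was lower (-0.36, adjusted p = 0.0353 from edgeR), kept the call in 4 of 12 fits with a library left out (lowest in size without standard OPC replicate 5, -0.25), and had -0.16 with the span trend removed. The cytosolic aminoacyl-tRNA synthetases charge tRNA with amino acids and include ATF4 targets. Of these 20 genes 3 were called higher and 0 lower by edgeR, beside 7.00% and 17.0% of all genes tested. The called genes were Aars1 (0.32), Mars1 (0.30) and Wars1 (0.24, adjusted p = 0.0471 from edgeR), the last called in 4 of 12 fits with a library left out. Among the 12 alternative settings the call was lost in 2 for Aars1, in 4 for Mars1 and in 7 for Wars1.

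The other arms of the unfolded protein response, run by ATF6 and XBP1, had 4 genes called higher and 2 lower of 18 tested, beside 7.00% higher and 17.0% lower over all genes, with a median log2 fold change of 0.13. Pdia4, Syvn1 and Sel1l, which fold or remove proteins in the ER, were higher by 0.33, 0.33 and 0.31. Sdf2l1 and Dnajb9, which encode ER co-chaperones, were lower, with -0.57 and -0.55. Hspa5 (BiP), the main ER chaperone, had 0.20 and was not called (adjusted p = 0.0673 from edgeR), and Xbp1 had -0.06. Sdf2l1 has a span of 2243 bases, where the span trend was -0.35, and with the trend removed it had -0.22 and was not called (adjusted p = 0.234 from edgeR). Dnajb9 kept its call under that setting (-0.44, adjusted p = 0.0270 from edgeR). The call of Syvn1 held in 7 of 12 fits with a library left out and was weakest without standard OPC replicate 5 (0.27, edgeR, adjusted p = 0.0761). Hsp90b1, the ER chaperone GRP94, was the remaining higher gene (0.23, adjusted p = 0.0368 from edgeR). Its groups overlapped, and its call was not followed in the fits with a library left out.

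**Figure D5:**
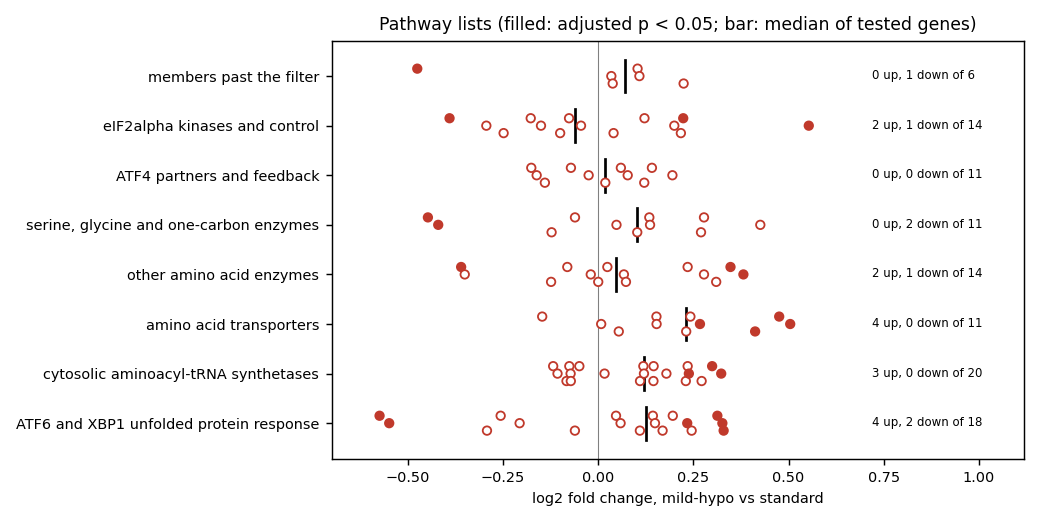
Log2 fold change (horizontal axis) of the tested members and of the tested genes of each of the 7 lists (rows), with filled points for an adjusted p under 0.05, open points for the rest and a bar at the median. The numbers at the right count called genes. The transporters lie mostly to the right of 0, and Atf4 lies to the left of all the other tested members.

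In the replicates 1 to 3 of each group, none of the 21 called genes of these lists was called by edgeR at the adjusted threshold. At an unadjusted p under 0.05, 14 list genes were higher and 3 lower there, beside 591 and 1106 of all 8554 genes tested. In replicates 4 to 6, with as many libraries, list genes were still called. At the same unadjusted p, 19 list genes were higher and 9 lower in that subset, beside 1110 and 1851 of all 8785 genes tested. With the depth term the corresponding counts were 0 called, 5 higher and 2 lower. Over all 8938 genes tested, 217 were higher and 488 lower at that unadjusted p with the depth term. The genes most like Atf4 across the 12 libraries, by the root mean square difference of centred log2 CPM, were Igbp1, Ubxn1, Rnf115, Carhsp1 and Hist1h2bq, with differences from 0.0708 for Igbp1 to 0.0744 for Hist1h2bq. Their log2 fold changes ran from -0.54 for Ubxn1 to -0.37 for Carhsp1, and each lay lower in all 6 mild-hypo-OPC libraries than in any standard OPC library. They were selected for likeness to a called gene, so their direction is no further result.

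Bulk RNA cannot tell fewer cells of a type from less RNA per cell, and Phgdh, Psat1 and Glul are also abundant in astrocytes. Of the astrocyte markers 9 were tested, 2 called higher (Aqp4 and Slc1a3) and 1 lower (S100b), and their summed level was 877 to 1022 CPM in mild-hypo-OPCs and 839 to 933 CPM in standard OPCs. Of the microglia markers 5 were tested, 2 called higher (Csf1r and C1qb) and 1 lower (Tyrobp), with sums of 53.7 to 75.4 CPM and 34.1 to 60.7 CPM. The neuron markers, 6 of which were tested and 1 called higher (Tubb3), summed to 362 to 421 CPM in mild-hypo-OPCs and 271 to 347 CPM in standard OPCs, ranges that did not overlap. The mesenchymal and endothelial markers summed to at most 2.84 CPM in any library, with Lum and Cdh5 at 0 in all. For the marker counts, the shares over all genes tested were 7.00% called higher and 17.0% called lower. The part of these cell types in the results above was not tested.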

How the data were processed

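Counts per Ensembl gene were used as deposited by the authors, who per the labels trimmed reads with Trimmomatic 0.36, checked them with FastQC 0.11.9, used STAR 2.7.9a for alignment to mRatBN7.2 and RSEM 1.3.3 for quantification. The deposited counts are whole numbers without normalization, from strand-specific libraries of total RNA, and how the estimates of RSEM were made whole is not given in the sources used here. All 12 columns were used and 0 were left out. Pairs of libraries of a group differed by more than sampling noise (chi-square over its degrees of freedom, 3.22 to 19.7), so no library was treated as deposited more than once. This does not show separate cultures, and libraries were counted by their labels.

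Genes had to exceed 10 CPM in at least 1 library. After TMM scaling, edgeR 4.0.16 (glmQLFit, glmQLFTest, condition as the only term, R 4.3.3) was run with Benjamini-Hochberg adjustment over all genes kept, at 0.05. Standard errors are those implied by the F statistic. Genes below the filter were read from a separate fit of the same model on all genes with a count, with its own TMM factors. In that fit Atf4 had a log2 fold change of -0.44. Their CPM levels use the factors of the genes kept, so levels and fold changes of these genes are on slightly different scales. The study's own test, limma-voom (limma 3.58.1), and DESeq2 1.42.0 were alternatives to the main fit. Others were different factors, filters, library subsets, thinning to the smallest total, a depth covariate and the replicate number as a block. Removal of the trend on gene span was added after seeing the data. Spans came from RefSeq (GRCr8, matched by symbol for 95.6% of genes tested), whose build differs from that of the counts, so only span and overlap are used. The scripts were tested on simulated data.

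The members and lists were chosen with earlier results of these data known. Named genes are the members, the eIF2α kinases, Ppp1r15a and Ppp1r15b, up to 3 called genes per list and direction with the largest change, and the 5 genes most like Atf4 in log2 CPM (prior count 2). Further list genes are examples chosen after their values were seen. Errors do not cover the unequal depth of both groups, and a count of 3 per library is the floor for a fold change. Matplotlib 3.10.9 drew the figures.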

Additional observations from a re-analysis of the deposited data

How the results depend on the processing

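Atf4 kept its direction under the 12 alternatives and in 12 fits with a library left out, and its call held in all of these except library size alone, the depth covariate and the removal of the span trend. The number of members called lower was 2 with no filter and 2 with filterByExpr, where Atf3 enters the test, and 0 with library size alone, with the depth covariate and with the span trend removed. The number called higher, 0 by edgeR, was 1 with DESeq2, 1 with upper-quartile factors and 5 with library size alone. In edgeR 2 members had an unadjusted p under 0.05, beside 3243 of all 8938 genes tested.

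Over all genes, 1136 were higher with upper-quartile factors, 5515 higher and 405 lower with library size alone, 53 higher and 343 lower in replicates 1 to 3, and 383 higher after thinning. With the depth covariate 0 were higher (217 at an unadjusted p under 0.05) and 43 lower, and 1011 were lower with the span trend removed. For the lists, 23 genes were higher with upper-quartile factors, 80 higher and 0 lower with library size alone, 0 and 0 in replicates 1 to 3, 9 higher in replicates 4 to 6, 8 higher after thinning, and 0 and 0 with the depth covariate. With 1 library left out, all genes gave 436 to 823 higher and 1165 to 1664 lower, and the lists gave 10 to 19 higher and 5 to 7 lower. Replicates 4 to 6, with as many libraries as replicates 1 to 3, gave 569 higher and 1381 lower over all genes. The cause of these differences between settings was not tested.

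The following genes changed sign. With library size alone these were Eif2s1 (0.044), Pycr3 (0.077), Psph (0.015), Rnf115 (0.022), Carhsp1 (0.069) and Chac1 (0.23). In replicates 1 to 3 these were Shmt2 (-0.016) and Eif2ak4 (-0.22), and after thinning Sesn2 (-0.043). With the depth covariate these were Eif2ak1 (-0.16), Eif2ak3 (-0.21), Eif2ak4 (-0.39), Syvn1 (-0.11), Sel1l (-0.024), Sdf2l1 (0.12), Pycr3 (0.18) and Psph (0.00041). Eif2ak4 was also negative with the span trend removed (-0.032). With 1 library left out, Eif2ak4 ran from -0.049 to 0.19, Phgdh from -0.013 to 0.087 and Chac1 from -0.24 to 0.019, with Phgdh negative and Chac1 positive only without standard OPC replicate 1.

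With the replicate number as a block, Atf4 had -0.48 (adjusted p = 0.000401 from edgeR), 572 genes were higher and 1471 lower, and Ppp1r15b and Wars1 lost their calls (adjusted p = 0.0732 and 0.0593 from edgeR). Libraries of the same number correlated between -0.28 and 0.30 in their deviations from the group means, and 1 of 6 mild-hypo-OPC libraries correlated best with its own number, so the number was not taken as a pairing. The alternatives of the members below the filter, run without it, were chosen after seeing the data.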
